A study of Mus musculus with 12 samples.

Results

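Regulators that define the hepatocyte were followed through 3 stages of the mouse liver cell: *Hnf4a*, *Foxa1*, *Foxa2*, *Foxa3*, *Cebpa*, *Cebpb*, *Onecut1*, *Onecut2* and *Prox1*. These 9 genes were chosen by name as hepatocyte transcription factors, out of 53715 genes listed, and all 9 passed the filter on low counts (over 10 in at least 1 library) that left 17779 genes. RNA came from 4 biological replicates each of hepatoblasts, Diff. hepatocytes and mature hepatocytes of C57BL/6JOlaHsd mice. Hepatoblasts are the fetal cells from which hepatocytes and bile duct cells arise. They were taken from pooled livers at E14.5 by magnetic sorting for the surface protein Dlk1 and lysed at once. Diff. hepatocytes were such hepatoblasts grown for 4 days on fibronectin in a medium with serum, insulin, dexamethasone and Matrigel, a culture in which bile duct cells also grow. Mature hepatocytes were isolated by collagenase perfusion from adult male mice of 8 to 12 weeks and lysed without culture, so stage, isolation method and sex cannot be told apart between the adult and the other groups, nor culture from these between Diff. and mature hepatocytes. Library totals, the reads assigned to genes, ran from 19581551 to 25216977. Levels are given as CPM, the counts of a gene per 1000000 counts of its library, with library sizes scaled by TMM, a factor that aligns most genes between libraries, and libraries are listed in the order of replicates 1 to 4.

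Hepatocyte genes are switched on by a network of such factors rather than by any single one. Foxa proteins open chromatin at liver enhancers early in development, Onecut proteins act in hepatoblasts and in the choice between hepatocyte and bile duct, and Hnf4a, a nuclear receptor, binds a large share of hepatocyte genes. Cebpa and Cebpb are bZIP proteins that bind the same DNA letters, Cebpa being known for restraining growth and driving metabolic genes and Cebpb for responding to hormones, inflammation and regeneration. Prox1 is a homeobox protein of the early liver bud that also acts in lymphatic endothelium.

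Promoters were matched in RefSeq's GRCm38.p6 table for 8 of the 9 factors. The 3 shown here belong to the factors on which the results below turn, and they hold the bases before the RefSeq start that lie outside annotated exons of the gene, 5′ to 3′. *Cebpa* and *Cebpb* are shown because they differed in culture, and the upstream *Hnf4a* start because it holds ONECUT and forkhead letters. The window of a downstream *Hnf4a* start, at chr2:163546943-163547154, held no match to any of the letters listed below and is not shown. The upstream *Hnf4a* window lies at chr2:163506607-163506807, *Cebpa* at chr7:35119043-35119292 and *Cebpb* at chr2:167688665-167688914, all on the plus strand. Capitals mark matches on either strand to TATAAA (the letters TBP binds), CCAAT (those of NF-Y), TGACG (cAMP response half-site), TTGCNNAA (C/EBP letters), TGTTTNC (forkhead letters), ATCAAT (ONECUT letters), AGGTCA (nuclear receptor half-site) and TGTTCT (glucocorticoid receptor half-site).
Hnf4a upstream: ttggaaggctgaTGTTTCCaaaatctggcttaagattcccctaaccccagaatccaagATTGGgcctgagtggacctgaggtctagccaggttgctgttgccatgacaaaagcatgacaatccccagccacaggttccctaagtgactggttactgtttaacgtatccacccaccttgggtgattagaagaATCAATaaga
Cebpa: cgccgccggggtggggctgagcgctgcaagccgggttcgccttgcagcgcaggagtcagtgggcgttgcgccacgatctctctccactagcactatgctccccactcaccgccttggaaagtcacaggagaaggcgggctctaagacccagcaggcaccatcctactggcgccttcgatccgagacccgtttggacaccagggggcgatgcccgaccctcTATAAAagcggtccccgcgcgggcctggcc
Cebpb: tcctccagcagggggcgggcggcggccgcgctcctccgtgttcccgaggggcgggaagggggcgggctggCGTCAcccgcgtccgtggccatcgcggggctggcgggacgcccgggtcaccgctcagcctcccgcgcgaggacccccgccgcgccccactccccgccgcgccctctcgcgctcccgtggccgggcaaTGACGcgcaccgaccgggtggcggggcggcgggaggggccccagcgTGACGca

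Positions are counted back from the base before the RefSeq start. For upstream *Hnf4a* the 201 bases printed stop short of that start, since the rest of the 250 bases lies in annotated exon. Its positions therefore do not count from the last base printed. This window held the ONECUT letters at -59 to -54, CCAAT at -192 to -188 and the forkhead letters at -238 to -232. *Cebpa* held TATAAA at -30 to -25 and no match to the other 7 motifs. *Cebpb* held the cAMP half-site 3 times, at -180 to -176, -53 to -49 and -7 to -3, and no match to the other 7 motifs. Of 32536 mouse promoters cut to 250 bases before the start, 12.3% held TATAAA, 17.9% TGACG, 6.6% ATCAAT and 17.8% TGTTTNC. The remaining shares were 33.8% for CCAAT, 9.57% for TTGCNNAA, 14.0% for AGGTCA and 16.03% for TGTTCT. These matches are descriptions of letters, and binding was not measured.

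The 9 factors did not follow 1 course. In Diff. hepatocytes, *Cebpb* was 2.53-fold higher and *Onecut2* 2.39-fold lower than in hepatoblasts, and the other 7 factors were not called. In mature hepatocytes, *Cebpb*, *Onecut1*, *Cebpa* and *Hnf4a* were 9.15-, 5.33-, 5.30- and 2.66-fold higher than in hepatoblasts. Diff. hepatocytes were below mature hepatocytes in *Cebpa*, *Onecut2*, *Onecut1*, *Cebpb*, *Foxa2* and *Foxa1*, by 7.08- to 2.41-fold. A gene was called changed at a Benjamini-Hochberg adjusted p under 0.01 in edgeR's quasi-likelihood test over all genes and an absolute log2 fold change over 1. By this rule 2 of 9 factors were called in Diff. hepatocytes against hepatoblasts, 1 higher and 1 lower, where 28.9% of all tested genes were called, 14.9% higher and 14% lower. Between mature hepatocytes and hepatoblasts 4 of 9 were called, all higher, beside 44.8% of all genes called, 20.1% higher and 24.7% lower. Between Diff. and mature hepatocytes 6 of 9 were called, all lower, beside 35.8% of all genes called, 20.2% higher and 15.6% lower. The median log2 fold change of the 9 factors was -0.27, 0.88 and -1.34 in the 3 comparisons, and that of all tested genes was -0.01, -0.15 and 0.09. At an adjusted p under 0.05 with no fold threshold, 6, 8 and 8 of the 9 factors passed in the 3 comparisons, beside 59.7%, 72.4% and 65.1% of all genes. The libraries of the compared groups did not overlap for 5, 7 and 7 of the 9 factors, beside 57.5%, 66% and 61.6% of all genes. Comparisons share groups, so their counts are not independent. In bulk RNA, fewer cells expressing a factor and less RNA per cell cannot be told apart.

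**Figure D1:**
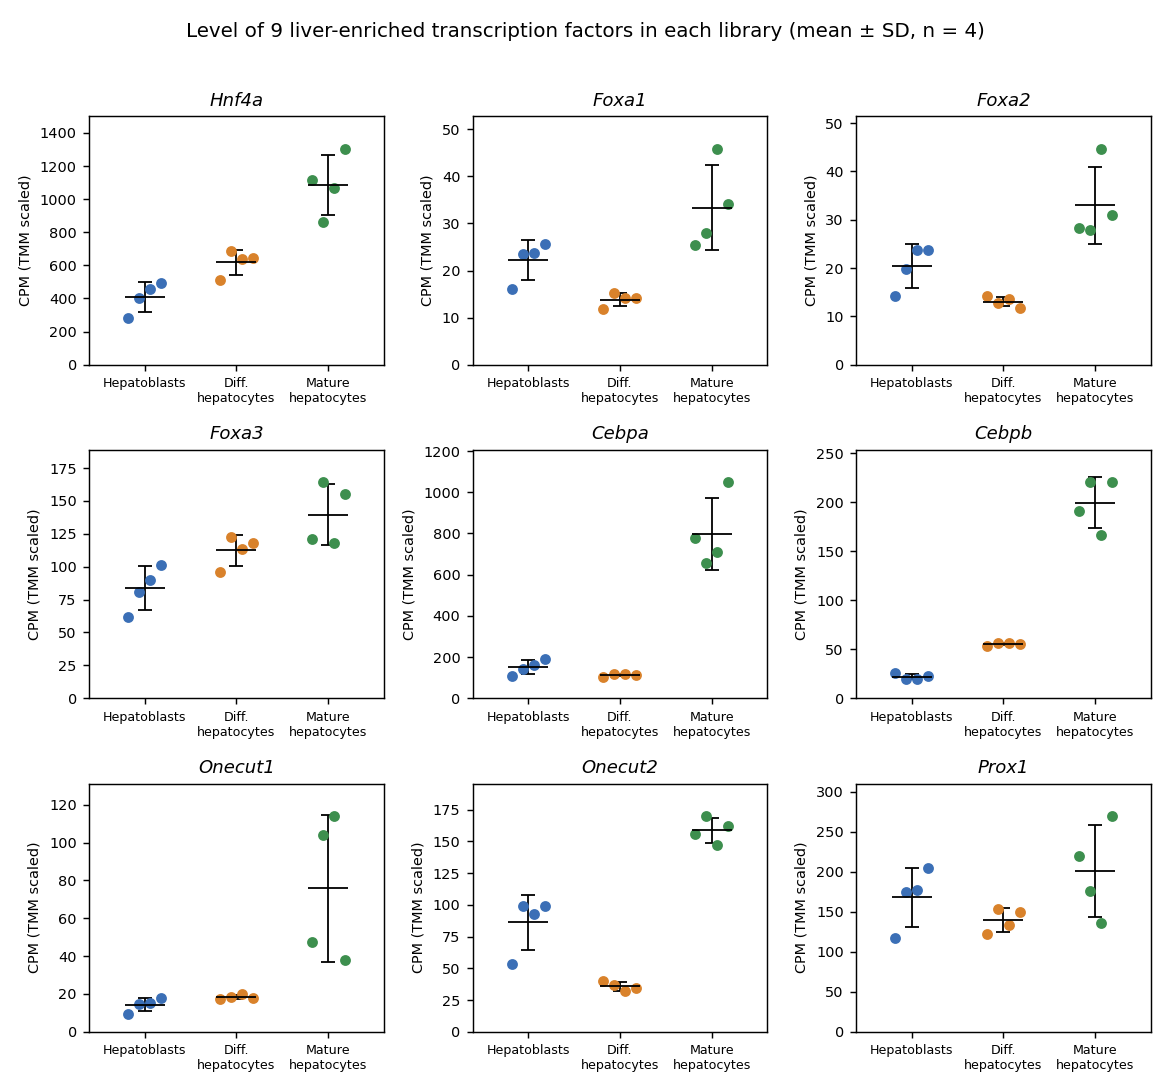
Level of each factor in CPM (vertical axes from 0, 1 panel per gene) in the 4 libraries of each group (points, in replicate order), with the mean and SD (line and bars, n = 4). *Cebpb* is tightly grouped in Diff. hepatocytes at 53.5 to 56.7 CPM, *Onecut2* is lowest there, and the 4 mature libraries of *Onecut1* lie far apart.

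The scale between libraries bears on the size of all of these changes. With library totals in place of TMM, the median of all tested genes moved by -0.32, -0.85 and 0.53 log2 units in the 3 comparisons. On that scale *Hnf4a* was 0.56 log2 units higher in mature hepatocytes than in hepatoblasts and no longer called. *Cebpa*, *Cebpb* and *Onecut1* were still called there, at 1.56, 2.33 and 1.61. *Foxa1* and *Foxa2* in Diff. against mature hepatocytes, at -0.75 and -0.81, were no longer called on that scale. With the fold threshold inside the test, *Hnf4a* in the adult and the same 2 Foxa differences also lost their calls, in edgeR and in DESeq2.

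Hepatoblasts replicate 1 stood apart from the other 3 hepatoblast libraries. It held the lowest level of 8 of the 9 factors and the highest level of *Cebpb*. The summed level of 10 erythroid genes was 3061 CPM there and 374 to 617 CPM in the other 3 hepatoblast libraries, and that of 8 granulocyte genes 466 against 32.6 to 52.5 CPM. The 8 macrophage genes summed to 343 CPM against 81.5 to 94.6 CPM, and 7 endothelial genes to 144 against 43.2 to 67.3 CPM. Without this library the same 2, 4 and 6 factors were called, and its part in the values of single factors was not tested beyond that.

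*Hnf4a* (ENSMUSG00000017950, chr2:163506808-163572910, plus strand, GRCm38) had the highest mean level per exon length in both fetal-derived groups. Its level was 282, 406, 459.9 and 491 CPM in hepatoblasts, 509.8, 686, 636 and 642 CPM in the Diff. hepatocytes and 1114, 862, 1069.6 and 1304 CPM in mature hepatocytes. The 3 groups did not overlap and stood in the order hepatoblasts, Diff. hepatocytes, mature hepatocytes. The step from hepatoblasts to Diff. hepatocytes was 0.60 ± 0.17 on the log2 scale (SE, adjusted p = 0.00946), under the fold threshold. Mature hepatocytes exceeded hepatoblasts by 1.41 ± 0.18 (adjusted p = 7.71e-06), and Diff. hepatocytes were -0.81 ± 0.17 from mature hepatocytes (adjusted p = 0.00105), again under the fold threshold. The antisense gene *Hnf4aos* shared 0 exon bases with it.

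The 3 Foxa genes did not follow 1 course. *Foxa1* (ENSMUSG00000035451, chr12:57540628-57546916, minus strand) was at 16.1, 23.4, 23.8 and 25.7 CPM in hepatoblasts, 11.9, 15.2, 14.1 and 14.2 CPM in the Diff. hepatocytes and 25.5, 28.0, 45.9 and 34.1 CPM in mature hepatocytes. Diff. hepatocytes held the lowest levels without overlap, and hepatoblasts and mature hepatocytes overlapped in range. Its log2 difference was -0.69 ± 0.18 from hepatoblasts (adjusted p = 0.00588, under the fold threshold) and -1.27 ± 0.19 from mature hepatocytes (adjusted p = 4.80e-05).

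*Foxa2* (ENSMUSG00000037025, chr2:148042877-148046969, minus strand) had nearly the same CPM as *Foxa1*. It was at 14.3, 19.9, 23.8 and 23.7 CPM in hepatoblasts, 14.1, 12.8, 13.5 and 11.8 CPM in the Diff. hepatocytes and 28.3, 28.0, 44.7 and 31.0 CPM in mature hepatocytes. All 4 Diff. libraries lay below every other library, though the highest of them, at 14.1 CPM, came close to the 14.3 CPM of hepatoblasts replicate 1. The log2 difference of Diff. hepatocytes was -0.64 ± 0.18 from hepatoblasts (adjusted p = 0.00719, under the fold threshold) and -1.34 ± 0.18 from mature hepatocytes (adjusted p = 2.34e-05). In the adult, replicate 3 was the highest library for both genes. Mature hepatocytes were 0.58 and 0.69 above hepatoblasts for *Foxa1* and *Foxa2* (adjusted p = 0.0108 and 0.00313), neither called. With library totals these differences turned to -0.25 and -0.14.

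*Foxa3* (ENSMUSG00000040891, chr7:19013284-19023538, minus strand) had the highest counts, and the highest level per exon length, of the 3 Foxa genes in every library. It stood at 61.9, 80.8, 89.7 and 102 CPM in hepatoblasts, 96.1, 123, 113 and 118 CPM in the Diff. hepatocytes and 121, 164, 118 and 155 CPM in mature hepatocytes. Neighbouring groups overlapped, and only hepatoblasts and mature hepatocytes were separate. No comparison was called, with log2 differences of 0.43 ± 0.15 for Diff. hepatocytes against hepatoblasts (adjusted p = 0.0276), 0.74 ± 0.15 for mature hepatocytes against hepatoblasts (adjusted p = 0.000687) and -0.31 ± 0.15 for Diff. against mature hepatocytes (adjusted p = 0.0888). The 95% interval of the last difference was -0.64 to 0.02, and with library totals it turned to 0.21. The adult difference from hepatoblasts turned to -0.09 with library totals.

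*Cebpa* (ENSMUSG00000034957, chr7:35119293-35121928, plus strand) separated the adult from both other groups. Its level was 109, 141, 163 and 189 CPM in hepatoblasts, 104, 118, 118 and 111 CPM in the Diff. hepatocytes and 778, 655, 708 and 1048 CPM in mature hepatocytes. The lowest adult library was more than 3 times the highest fetal one, and hepatoblasts and Diff. hepatocytes overlapped. Mature hepatocytes exceeded hepatoblasts by 2.41 ± 0.18 on the log2 scale (adjusted p = 4.59e-08). Diff. hepatocytes were -2.82 ± 0.18 from mature hepatocytes (adjusted p = 2.25e-08) and -0.42 ± 0.17 from hepatoblasts (adjusted p = 0.0508), the latter with a 95% interval of -0.79 to -0.05.

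*Cebpb* (ENSMUSG00000056501, chr2:167688915-167690418, plus strand) was higher in culture and higher again in the adult. It was at 25.4, 19.4, 20.01 and 22.5 CPM in hepatoblasts, 53.5, 56.1, 56.7 and 55.0 CPM in the Diff. hepatocytes and 191, 220.4, 167 and 221 CPM in mature hepatocytes. No 2 groups overlapped, and the 4 Diff. libraries differed by only 1.06-fold. The log2 difference was 1.34 ± 0.11 for Diff. hepatocytes against hepatoblasts (adjusted p = 2.83e-07), 3.19 ± 0.12 for mature hepatocytes against hepatoblasts (adjusted p = 5.39e-11) and -1.85 ± 0.11 for Diff. against mature hepatocytes (adjusted p = 1.01e-08). With the fold threshold inside the test, *Cebpb* in culture passed in edgeR and not in DESeq2. Of its 1504 exon bases, 20.7% are shared with *Tmem189* on the opposite strand, which had 132 to 247 counts per library against 618 to 3552 for *Cebpb*. The strand setting of the counting is not stated.

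The Onecut genes differed in culture, where only *Onecut2* was called. *Onecut1* (ENSMUSG00000043013, chr9:74861921-74891781, plus strand), also known as HNF6, was at 9.51, 14.54, 14.96 and 17.8 CPM in hepatoblasts, 17.1, 18.5, 19.7 and 17.8 CPM in the Diff. hepatocytes and 47.4, 104, 114 and 37.9 CPM in mature hepatocytes. Hepatoblasts and Diff. hepatocytes overlapped. All adult libraries were higher, yet they split 2 and 2, replicates 2 and 3 being at more than 2 times the level of replicates 1 and 4. This 3.01-fold range was the widest of any factor in any group. Mature hepatocytes exceeded hepatoblasts by 2.42 ± 0.32 (adjusted p = 1.24e-05) and Diff. hepatocytes were -2.05 ± 0.31 from mature hepatocytes (adjusted p = 6.80e-05). Diff. hepatocytes and hepatoblasts differed by 0.36 ± 0.31 (adjusted p = 0.328, 95% interval -0.30 to 1.03). In the annotation 52.8% of its exon bases are shared with the lincRNA gene *Gm20649* on the same strand, which is listed at 0 in every library, so reads in that part may not have been counted for either gene.

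*Onecut2* (ENSMUSG00000045991, chr18:64340020-64400987, plus strand) was the factor most reduced in culture. Its level was 53.7, 99.4, 92.4 and 98.9 CPM in hepatoblasts, 40.3, 37.1, 32.0 and 34.7 CPM in the Diff. hepatocytes and 156, 169.9, 147 and 162 CPM in mature hepatocytes. The groups did not overlap, with Diff. hepatocytes lowest and the adult highest. The log2 difference of Diff. hepatocytes was -1.26 ± 0.16 from hepatoblasts (adjusted p = 2.16e-05) and -2.14 ± 0.17 from mature hepatocytes (adjusted p = 1.37e-07). With the fold threshold inside the test, the change from hepatoblasts passed neither in edgeR nor in DESeq2. Mature hepatocytes were 0.88 ± 0.16 above hepatoblasts (adjusted p = 0.000254, under the fold threshold), a difference that came to 0.045 with library totals.

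*Prox1* (ENSMUSG00000010175, chr1:190118035-190170714, minus strand) showed no called difference. It was at 117, 174, 177 and 204 CPM in hepatoblasts, 123, 154, 133 and 149 CPM in the Diff. hepatocytes and 219.8, 176, 136 and 269.7 CPM in mature hepatocytes. Every pair of groups overlapped. The log2 differences were -0.27 ± 0.20 for Diff. hepatocytes against hepatoblasts (adjusted p = 0.269, 95% interval -0.70 to 0.17), 0.25 ± 0.20 for mature hepatocytes against hepatoblasts (adjusted p = 0.267, 95% interval -0.18 to 0.69) and -0.52 ± 0.20 for Diff. against mature hepatocytes (adjusted p = 0.0356). With library totals the last 2 turned to -0.60 and 0.02. *Prox1* also acts in lymphatic endothelium. Its 4 listed markers summed to 6.99 to 27.1 CPM in hepatoblasts, 2.56 to 6.44 CPM in culture and 20.5 to 38.0 CPM in the adult. *Flt4* made up most of the adult sum, at a mean of 25.1 CPM against 4.78 CPM in hepatoblasts. *Lyve1* was lower in the adult, at a mean of 4.10 against 9.34 CPM, and *Pdpn* and *Ccl21a* were at means of 0.063 and 0.078 CPM there. The part of these markers in the *Prox1* values was not tested.

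**Figure D2:**
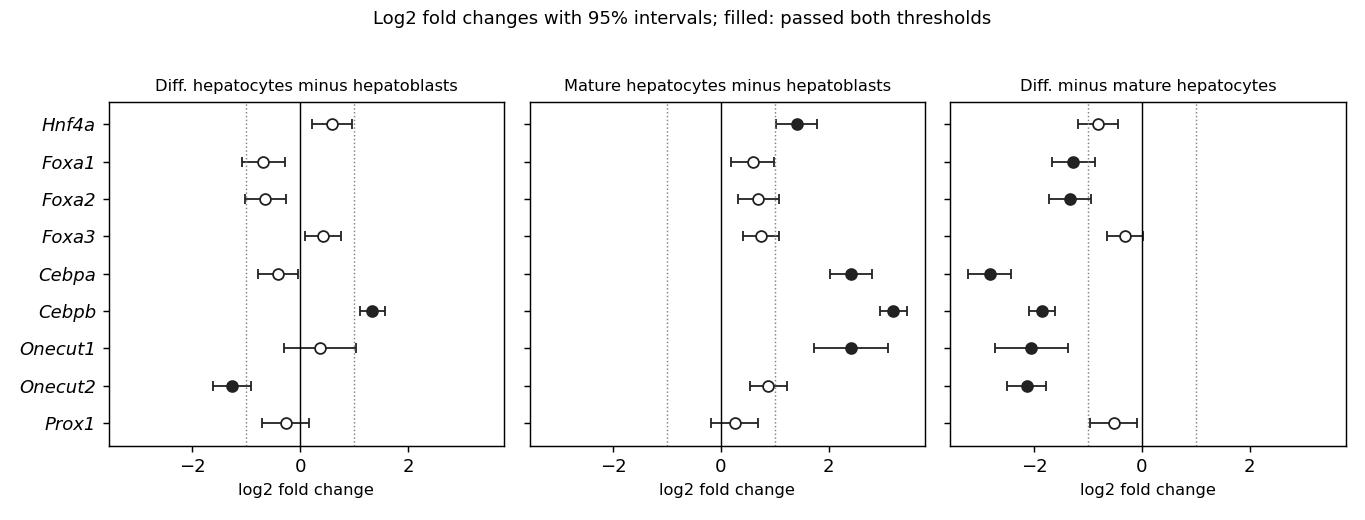
Log2 fold change of each factor (horizontal axis) with its 95% interval (bars) in the 3 comparisons; filled points passed an adjusted p under 0.01 and a fold change over the dotted lines at -1 and 1. Between Diff. and mature hepatocytes all 9 points lie below 0, 6 of them called, though *Foxa3* and *Prox1* turn above 0 with library totals.

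Levels of different factors were compared per length, as CPM per kilobase of exon (CPM/kb). In hepatoblasts the order was *Hnf4a* at 84.8 ± 19.1 CPM/kb (SD, n = 4), *Cebpa* at 57.0, *Foxa3* at 41.0, *Prox1* at 20.03, *Cebpb* at 14.52, *Foxa2* at 8.61, *Foxa1* at 6.69, *Onecut2* at 5.30 and *Onecut1* at 3.46. Of its 8 neighbouring pairs, only *Foxa3* and *Prox1*, and *Cebpb* and *Foxa2*, did not overlap. In Diff. hepatocytes *Hnf4a* led at 128 ± 15.7 CPM/kb, followed by *Foxa3* at 55.2, *Cebpa* at 42.7, *Cebpb* at 36.8, *Prox1* at 16.6, *Foxa2* at 5.51, *Onecut1* at 4.44, *Foxa1* at 4.16 and *Onecut2* at 2.22. There only *Onecut1* and *Foxa1* overlapped. In mature hepatocytes *Cebpa* came to 302 ± 66.3 and *Hnf4a* to 225 ± 37.6 CPM/kb, which overlapped, ahead of *Cebpb* at 133 and *Foxa3* at 68.5. *Prox1* at 23.9, *Onecut1* at 18.4, *Foxa2* at 13.9, *Foxa1* at 10.03 and *Onecut2* at 9.76 CPM/kb each overlapped with the next. Divided by the exon bases that no other gene shares, *Onecut1* came to 7.32, 9.41 and 39.01 CPM/kb in hepatoblasts, Diff. hepatocytes and mature hepatocytes, which places it above *Foxa1* and *Onecut2* in hepatoblasts, above *Foxa2* in Diff. hepatocytes and above *Prox1* in the adult. By the same divisor *Cebpb* came to 46.4 CPM/kb in Diff. hepatocytes, above *Cebpa* at 43.6, so the order of these 2 genes in culture depends on the length used.

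**Figure D3:**
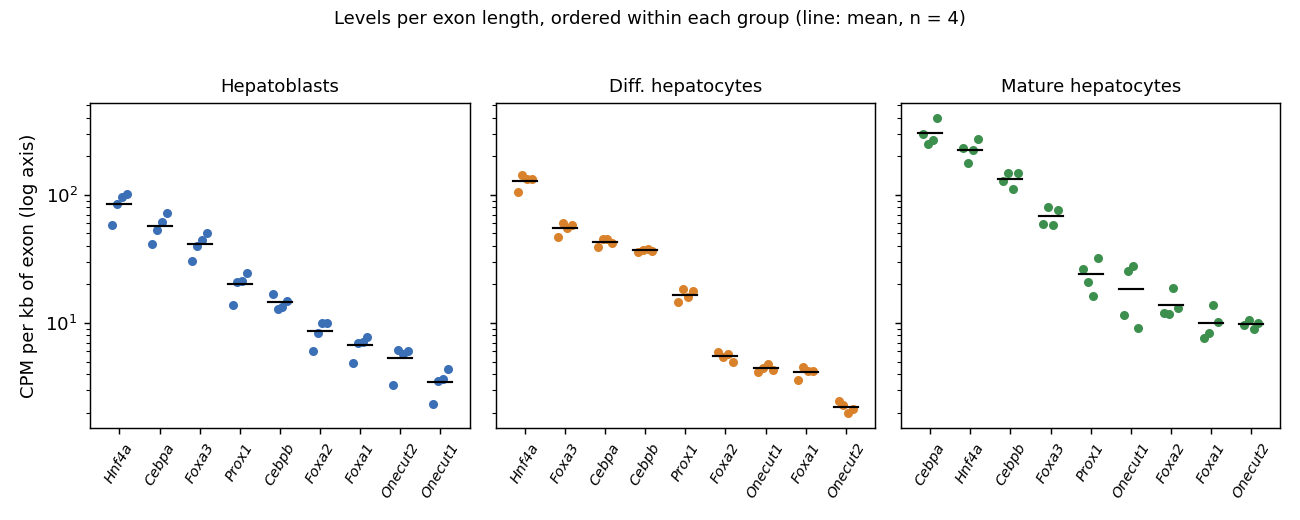
Level per kilobase of exon (vertical log axis) of the 9 factors in the order of their means, in 1 panel per group, with the 4 libraries as points and the mean as a line. *Hnf4a* leads in hepatoblasts and Diff. hepatocytes, and *Cebpa* and *Hnf4a* overlap at the top in mature hepatocytes.

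The share of each factor in the summed CPM/kb of the 9 depends on no scale between libraries, but it falls where other factors rise. A lower share is therefore not a lower level: that of *Hnf4a* was lowest in the adult, where its level was highest. *Hnf4a* took a mean of 34.97% ± 1.47 (SD, n = 4) of the sum in hepatoblasts, against 43.2% ± 1.61 in the cultured and 27.9% ± 2.49 in the adult cells. *Cebpa* took 23.5%, 14.48% and 37.3%, and *Cebpb* 6.31%, 12.5% and 16.6%. *Prox1* took 8.27%, 5.63% and 2.93%.

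Ratios of relatives within a library, which no scaling can alter, described the changes of balance. There were 3.33-fold fewer *Cebpa* counts per *Cebpb* count in Diff. hepatocytes than in hepatoblasts. In hepatoblasts the ratio was 4.28, 7.23, 8.14 and 8.42, in Diff. hepatocytes 1.93, 2.11, 2.08 and 2.02, and in mature hepatocytes 4.08, 2.97, 4.24 and 4.75. Diff. hepatocytes lay below both other groups without overlap, and hepatoblasts replicate 1 lay within the range of the adult. The mean log2 ratio differed by -1.74 from hepatoblasts and by -0.96 from mature hepatocytes, each with p = 0.0286 in a two-sided exact permutation test, the smallest p that groups of 4 allow. Adjusted over the 15 ratio tests this p is 0.0536, so no ratio passes at 0.05 after adjustment.

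*Foxa1* and *Foxa2* stayed near parity. Their ratio was between 0.841 and 1.201 in all 12 libraries, and the largest of the 3 differences between groups was -0.12 on the log2 scale (exact permutation p = 0.229, adjusted p = 0.343). In hepatoblasts there were 3.45 to 3.95 *Foxa3* counts per *Foxa1* count, in Diff. hepatocytes 8.03 to 8.33, and in mature hepatocytes 2.57 to 5.86. Diff. hepatocytes were thus above both other groups, by 1.12 and 0.93 log2 units (exact permutation p = 0.0286 each, adjusted p = 0.0536). The ratio to *Foxa2* gave 1.06 and 1.01 with the same p. Between hepatoblasts and mature hepatocytes both ratios overlapped.

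In hepatoblasts there were 0.146 to 0.180 *Onecut1* counts per *Onecut2* count, in Diff. hepatocytes 0.425 to 0.617, and in mature hepatocytes 0.234 to 0.777. Hepatoblasts lay below both other groups, by 1.62 log2 units from Diff. hepatocytes and 1.37 from mature hepatocytes (exact permutation p = 0.0286 each, adjusted p = 0.0536). Diff. and mature hepatocytes overlapped and differed by 0.25 (exact permutation p = 0.571). In culture *Onecut2* fell and *Onecut1* was not called, and in the adult *Onecut1* rose and *Onecut2* was not called.

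**Figure D4:**
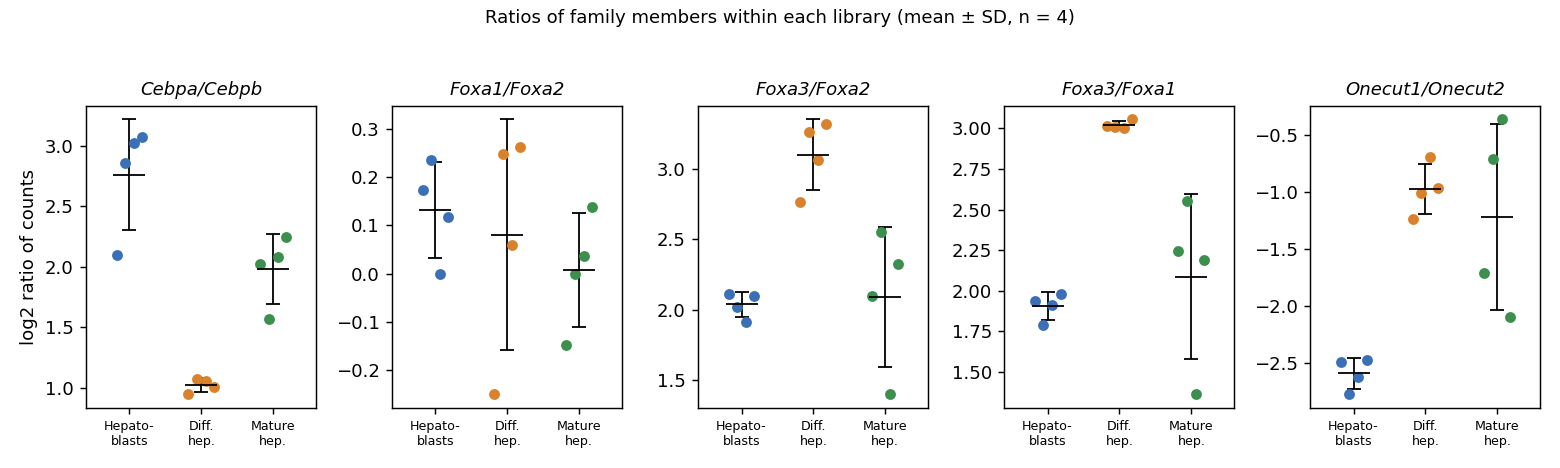
Log2 ratio of the counts of 2 related factors (vertical axes, 1 panel per ratio) in each library (points), with the mean and SD of the group (line and bars, n = 4). *Cebpa/Cebpb* is lowest and *Foxa3/Foxa1* highest in Diff. hepatocytes, and *Foxa1/Foxa2* stays near 0 in all 3 groups.

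The genes whose log2 CPM followed each factor most closely were read from 8688 tested genes whose mean level was 10 CPM or more, across all 12 libraries, with Pearson's r as a description. These libraries fall into 3 groups, so any gene with the same 3 group levels scores highly. *Cebpb* was followed most closely by *Glyat* (r = 0.996), *Nr1i3* and *Apon*, of which *Nr1i3* encodes the xenobiotic receptor CAR. *Pipox* (r = 0.996) and *Itm2b* were among the 3 genes closest to *Cebpa*, and *Hnf4a* was followed by *Arhgap35* (r = 0.995), *Sc5d* and *Il17rc*, *Sc5d* being an enzyme of cholesterol synthesis. The closest genes were *Depdc7* to *Foxa1* (r = 0.970), *Hspa13* to *Foxa2* (r = 0.961), *Zfyve9* to *Foxa3* (r = 0.971), *Rnf169* to *Onecut1* (r = 0.977) and *Rbbp9* to *Onecut2* (r = 0.987). *Bcr* was among the 3 closest genes of both *Foxa1* and *Foxa2*. *Prox1* had the loosest match, with *Acadl* at r = 0.940.

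Relatives of the 9 factors were read in the same fits. Of 7 relatives, 3 rose and 2 fell in Diff. hepatocytes against hepatoblasts, beside 14.9% of all tested genes higher and 14% lower. *Cebpd*, a C/EBP protein induced by hormones and inflammation, was at 7.11 to 10.8 CPM in hepatoblasts, 22.9 to 28.5 CPM in culture and 7.003 to 13.3 CPM in the adult, so that culture exceeded both other groups (1.55 and 1.33 on the log2 scale, adjusted p = 6.32e-06 and 2.21e-05). *Cebpg* rose by 1.06 and *Ddit3*, the C/EBP relative CHOP of the stress response, by 1.02. *Hnf4g* fell by 4.26 in culture and fell by 4.14 in the adult, the hepatoblast level being 1.26 to 2.56 CPM against at most 0.172 CPM in any other library. *Onecut3* also fell in both, from at most 0.806 CPM in hepatoblasts. Against hepatoblasts, mature hepatocytes had 1 relative higher and 3 lower, beside 20.1% and 24.7% of all genes. The 1 was *Cebpe*, known from granulocytes, at 9.98 to 15.96 CPM in the adult. The granulocyte markers of these libraries summed to 0.683 to 1.35 CPM. *Cebpe* was at 2.32 CPM in hepatoblasts replicate 1 and 0.119 to 0.232 CPM in the other 3. The part of granulocytes in the *Cebpe* values was not tested.

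Other liver regulators changed in both directions in culture. Of 20, 7 rose and 2 fell in Diff. hepatocytes against hepatoblasts, with a median log2 fold change of 0.76, beside 14.9% and 14% of all tested genes. The 7 included *Nr1h4*, the bile acid receptor FXR, at 6.21 to 10.7 CPM in hepatoblasts, 44.5 to 55.4 CPM in culture and 147 to 205 CPM in the adult. *Rxra*, the partner of many nuclear receptors, rose by 1.69, *Ppara*, a regulator of fatty acid oxidation, by 2.01 and *Zbtb20*, a repressor of *Afp*, by 1.64. The 2 that fell were *Tbx3*, a hepatoblast regulator, at 28.0 to 50.9 CPM in hepatoblasts against 6.02 to 6.93 CPM in culture, and *Hlf*, a bZIP factor of daily rhythms, by 1.92. In the adult *Tbx3* was at 26.0 to 82.3 CPM and *Hlf* at 46.3 to 103 CPM. Neither was called between the adult and hepatoblasts, where their ranges overlapped. In mature hepatocytes against hepatoblasts 12 rose and 2 fell, beside 20.1% and 24.7% of all genes, the 2 being *Gata6* and *Ppargc1a*, with a median of 1.998. Diff. hepatocytes were lower than mature hepatocytes in 13 and higher in the same 2, beside 15.6% and 20.2% of all genes, with a median of -1.43. These medians stood beside medians of all tested genes of -0.01, -0.15 and 0.09 in the 3 comparisons.

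The spread of *Onecut1* among adult libraries was set beside the regulators that also varied there. *Dbp*, a bZIP factor under the clock, was at 24.9, 122, 24.9 and 159 CPM in mature replicates 1 to 4, and *Tef*, its relative, at 92.6, 282, 102 and 316 CPM. *Dbp* and *Tef* were higher in replicates 2 and 4, and *Onecut1* in replicates 2 and 3. *Hhex*, a homeobox factor of the early liver, was at 45.0, 129, 209.6 and 149.8 CPM, with replicate 1 low. The time of day at isolation is not given in the sources used here, and its part in the spread of these genes was not tested.

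Textbook targets of these factors, a list chosen with results of these data known, were read in the same way. Of 22 targets, 14 rose and 2 fell in Diff. hepatocytes against hepatoblasts (median 1.60), 19 rose and 1 fell in mature hepatocytes against hepatoblasts (median 2.77), and 2 were higher and 17 lower in Diff. than in mature hepatocytes (median -1.95). Of all tested genes, 14.9%, 20.1% and 20.2% were higher and 14%, 24.7% and 15.6% lower in the 3 comparisons. *Alb*, bound by most of the 9 factors, was at 27765 to 47162 CPM in hepatoblasts, overlapping with 36999 to 43484 CPM in culture, and 81003 to 118984 CPM in mature hepatocytes. *Apoc3*, an apolipoprotein gene with an Hnf4a site, was at 2.61 to 3.95, 45.7 to 70.2 and 1841 to 2399 CPM in the same order. *Cyp7a1*, the rate-limiting enzyme of bile acid synthesis, was at 1.19 to 2.92 CPM in hepatoblasts, 43.0 to 49.5 CPM in culture, and the adult range of 38.3 to 249 CPM overlapped with culture.

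Single targets differed in course. *Ttr*, a classical Foxa target encoding the carrier transthyretin, was at 1448 to 2507 CPM in hepatoblasts, 905 to 1143 CPM in culture and 7021 to 8753 CPM in the adult. Its difference in culture of -0.88 (adjusted p = 0.000537) was under the fold threshold. *Otc*, an enzyme of the urea cycle, fell by 1.71 in culture, from 103 to 166 CPM to 31.0 to 52.1 CPM. *Igfbp1*, a hormone-responsive target of Foxa proteins, was highest in culture, at 3904 to 5452 CPM against 181 to 308 CPM in hepatoblasts and 302 to 754 CPM in mature hepatocytes. *Tdo2*, an enzyme of tryptophan breakdown, rose to 1.42 to 1.77 CPM in culture from 0.484 to 0.696 CPM in hepatoblasts, far from the 1718 to 2804 CPM of mature hepatocytes. *Afp*, the fetal albumin relative, fell by 1.08 in culture and by 9.86 in the adult.

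**Figure D5:**
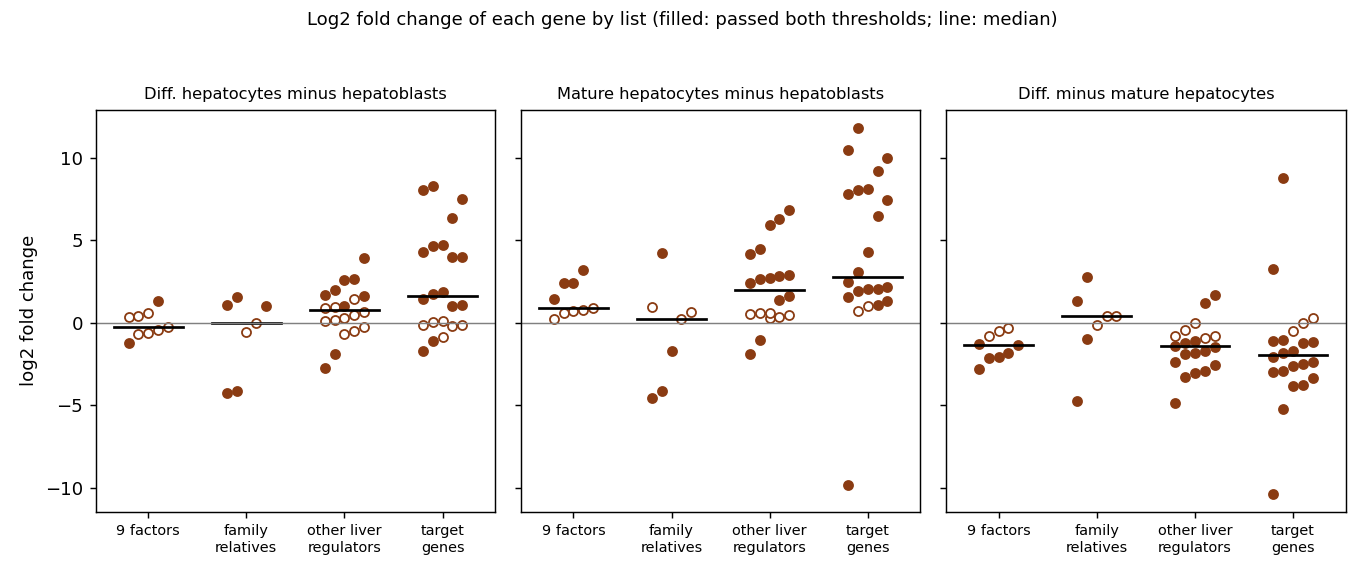
Log2 fold change (vertical axis) of each gene in the 4 lists (points; filled if called) with the median of the list (line), in 1 panel per comparison. In culture the 9 factors centre near 0 at -0.27 while the targets have a median of 1.60, and between Diff. and mature hepatocytes the factors, regulators and targets have medians below 0.

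Markers of cell types and states moved with these results. The 6 hepatocyte markers were all detected in every library and rose in mature hepatocytes against hepatoblasts (6 of 6), while the 5 hepatoblast markers, *Dlk1* among them, fell there (5 of 5). Hepatoblasts were sorted by the Dlk1 protein, so the lower *Dlk1* of the adult is not independent of the isolation. In Diff. hepatocytes against hepatoblasts 3 of 6 hepatocyte markers rose and 4 of 5 hepatoblast markers fell, *H19* being the one not called. Bile duct markers summed to 18.3 to 21.8 CPM in hepatoblasts, 82.4 to 237 CPM in culture and 15.9 to 42.3 CPM in the adult, with 4 of 6 higher in culture. The 237 CPM was replicate 1, and the other cultured libraries were at 82.4 to 108 CPM. *Krt19* and *Krt7* had the highest cultured means, at 47.3 and 41.9 CPM. *Sox9*, at means of 4.76 CPM in culture and 4.73 CPM in hepatoblasts, and *Spp1* were not called. Mesenchymal markers summed to 761 to 1355, 1269 to 3230 and 62.1 to 83.2 CPM, and 10 erythroid genes to 374 to 3061, 7.15 to 29.8 and 135 to 185 CPM. Macrophage markers summed to 81.5 to 343, 21.7 to 131 and 116 to 225 CPM, and endothelial markers to 43.2 to 144, 28.5 to 31.8 and 131 to 235 CPM. Granulocyte markers summed to 6.80 to 123 CPM in Diff. hepatocytes. All 8 cell cycle genes fell in culture and in the adult, from 1306 to 2242 CPM to 88.0 to 159 and 37.4 to 47.0 CPM. Of 6 glucocorticoid response genes, 4 rose and 1 fell in culture, whose medium contains dexamethasone, and 7 of 9 immediate early genes fell. Beside all of these counts, 14.9% of all tested genes were called higher and 14% lower in Diff. hepatocytes against hepatoblasts. In mature hepatocytes against hepatoblasts these shares were 20.1% and 24.7%. *Fkbp5*, a glucocorticoid target, was at 67.7 to 98.2 CPM in hepatoblasts, 232 to 284 CPM in culture and 39.4 to 78.7 CPM in the adult. The part of these cells and states in the values of the 9 factors was not tested.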

How the data were processed

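RNA-seq of 12 libraries was analysed (4 hepatoblast, 4 Diff. hepatocyte, 4 mature hepatocyte), assigned to groups by their titles. The deposited table holds raw counts, whole numbers that the authors made by mapping 75-bp single reads to GRCm38 with STAR 2.5.2b and counting on Ensembl genes, after FastQC 0.11.2; the processing notes also name Picard 2.10.2 and DESeq2 1.22.2. The strand setting and duplicate removal are not given in the sources used here. No values were filtered or normalized before deposit as far as the table shows. The replicates are stated to be biological.

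Genes at over 10 counts in 1 or more samples were scaled by TMM and tested with edgeR 4.0.16 (quasi-likelihood, group only, all 12 libraries; R 4.3.3) and Benjamini-Hochberg adjustment over 17779 genes. The thresholds of adjusted p under 0.01 and absolute log2 fold change over 1 follow the study. Log2 CPM used a prior count of 2, and ratios an offset of 0.5 counts. Symbols, exon lengths and overlaps came from GENCODE M21, in which 53620 of 53715 identifiers were found. Transcript sequences of 75 bases were compared with those of all other genes in the sense direction, and only *Onecut1* shared any (52.0%, with *Gm20649*). This comparison could not find exon overlaps on the opposite strand, as between *Cebpb* and *Tmem189* or *Prox1* and *Prox1os*. In simulated data of 16455 genes for Diff. hepatocytes against hepatoblasts, 195 of 200 changed genes and 1 unchanged gene were called. All 200 were changed by 2 log2 units and drawn only from genes with higher expected counts. The simulation therefore does not show how often smaller changes, or genes at lower counts, are called. At this depth a gene at 0 allows up to 3 counts in a library, for counting error only.

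The 9 factors and all lists were chosen with earlier results of these data known, so list counts are descriptions. Named genes are the 9 factors, genes of the lists and the 3 closest genes by correlation; the list genes printed were picked with their values in view. Some named genes are not reported here. Alternatives were DESeq2 1.42.0, fold thresholds inside the test, other scalings and filters, fits limited to the compared groups, a replicate block and leaving out each library. The level per unshared exon base was chosen after seeing the data.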

Additional observations from a re-analysis of the deposited data

Results flagged for a closer look

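In each group of 4 libraries, the highest and the lowest value of the 9 factors, of the named list genes, of the ratios, of the library totals and of the TMM factors were compared with the other 3 by Dixon's criterion. It marked 10 of 141 sets of values, where chance gives about 7.05. Hepatoblasts replicate 1 accounts for 6 of them: *Onecut2* was at 53.7 CPM against 92.4 to 99.4 CPM in the other 3 hepatoblast libraries, *Hhex* at 32.6 against 46.6 to 48.4 CPM, *Tbx3* at 28.0 against 47.6 to 50.9 CPM, *Nr5a2* at 43.3 against 67.6 to 72.5 CPM and *Dbp* at 0.838 against 1.09 to 1.10 CPM, while *Cebpe* was high at 2.32 against 0.119 to 0.232 CPM. The same library had the highest sums of erythroid, granulocyte, macrophage and endothelial markers, whose part in these values was not tested.

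The other 4 came from different libraries. *Zbtb20* was at 23.8 CPM in hepatoblasts replicate 4 against 17.2 to 18.2 CPM. In Diff. hepatocytes replicate 2, *Ddit3* was at 24.7 against 42.0 to 45.1 CPM and *Fkbp5* at 232 against 279 to 284 CPM. *Onecut3* was at 0.0584 CPM in mature hepatocytes replicate 3 and at 0 in the other 3.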

How the results depend on the processing

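With the fold threshold inside the test, DESeq2 called 2504, 4923 and 3528 genes in the comparisons of culture with hepatoblasts, adult with hepatoblasts and culture with adult and 0, 3 and 4 factors; edgeR's glmTreat called 2966, 5750 and 4221 genes and 1, 3 and 4 factors. The thresholds applied after edgeR's test gave 5145, 7971 and 6362. Both tools lost *Onecut2* in culture against hepatoblasts, *Hnf4a* in the adult and *Foxa1* and *Foxa2* in culture against the adult, and DESeq2 also lost *Cebpb* in culture against hepatoblasts. At an adjusted p under 0.05 without a fold threshold, 10615, 12870 and 11580 genes and 6, 8 and 8 factors passed. Scaling moved the split of higher and lower genes from 2648 and 2497, 3580 and 4391, and 3586 and 2776 to 1985 and 3621, 2007 and 7920, and 5500 and 1776 with library totals, and to 2398 and 2817, 2282 and 7019, and 5680 and 1741 without the 50 most abundant genes. In mature hepatocytes against hepatoblasts, totals reversed *Foxa1* (-0.25), *Foxa2* (-0.14), *Foxa3* (-0.095) and *Prox1* (-0.60), and totals without the 50 genes *Foxa1* (-0.074) and *Prox1* (-0.42). In Diff. against mature hepatocytes they reversed *Foxa3* (0.21 and 0.25) and *Prox1* (0.024 and 0.051). Each stayed on the same side of the median of all genes as before. *Hnf4a* in the adult and *Foxa1* and *Foxa2* against the adult were not called under either.

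No link between samples other than the replicate number is given in the sources used here. Between Diff. hepatocytes and hepatoblasts, deviations of same-numbered libraries correlated at 0.32, -0.06, 0.25 and 0.18 in replicate order. Between mature hepatocytes and either other group they correlated between -0.08 and 0.09. Whether Diff. hepatocytes and hepatoblasts share cell preparations was not tested. With the replicate block 5220, 7988 and 6359 genes and the same 2, 4 and 6 factors were called, and paired ratio tests cannot go below 0.125. Leaving out single libraries gave 4704 to 5170, 7621 to 7967 and 6027 to 6532 genes and changed no factor's call. Over these, the log2 ratio *Foxa1/Foxa2* in Diff. hepatocytes against hepatoblasts ranged from -0.11 to 0.059 (above 0 without Diff. hepatocytes replicate 1), *Foxa3/Foxa2* in mature hepatocytes against hepatoblasts from -0.096 to 0.29 (below 0 without mature replicate 2 or 4), and *Onecut1/Onecut2* in Diff. against mature hepatocytes from -0.045 to 0.53 (below 0 without mature replicate 4). Per unshared exon base, *Cebpb* came to 18.3, 46.4 and 167.5 CPM/kb and *Onecut1* to 7.32, 9.41 and 39.01 CPM/kb in hepatoblasts, Diff. hepatocytes and mature hepatocytes. Where calls changed, the cause was not tested beyond the scaling itself.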
